A study of Mus musculus with 8 samples.

Results

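A group of 10 tissue-restricted basic helix-loop-helix (bHLH) genes whose products pair with E proteins was followed across 4 genotypes of cultured mouse aortic smooth muscle cells. They were Tal1, Lyl1, Twist1, Twist2, Tcf21, Tcf15, Hand2, Msc, Scx and Mesp1, taken by symbol from the 55353 entries of a gene count table, and all 10 were listed there. The groups were the E12 knockout, the E12 wild type, the E47 knockout and the E47 wild type, with 2 libraries each from separate extractions, 8 in all. E12 and E47 are the isoforms of the E protein E2A, which Tcf3 encodes. The cells were revived from frozen stocks and lysed in the dish, and nothing in the labels gives a strain, sex, age or number of animals or cultures behind a genotype. Separate cultures or animals behind the paired libraries are not stated, so a p-value sets a difference against the spread of these libraries alone, which may be technical.

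E proteins are present in most tissues and bind DNA at E-box motifs as dimers. In many lineages the other member of the dimer is a tissue-restricted bHLH protein, which sets where the pair acts, and Id proteins block E proteins by pairing with them without binding DNA. TAL1 and LYL1 are the partners of blood and endothelial cells, TWIST1 and TWIST2 of mesenchyme, and scleraxis (Scx) of tendon. TCF21 marks the epicardium and the smooth muscle and fibroblast precursors that come from it, TCF15 the somites, HAND2 the heart and neural crest, musculin (Msc) facial muscle, and MESP1 early cardiac mesoderm.

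The E47 wild-type libraries stood apart from the others in cell type markers. The summed level of 9 endothelial markers was 5.21 to 5.65 CPM (the count over the TMM-scaled library size) in E12-knockout libraries, 9.04 to 10.8 CPM in E12 wild-type libraries, 4.48 to 7.07 CPM in E47-knockout libraries and 682 to 751 CPM in E47 wild-type libraries. All 9 endothelial markers had counts in every genotype. The 7 smooth muscle markers summed to 1758 to 2285 CPM over the other genotypes and 3972 to 4236 CPM in E47 wild-type libraries. Acta2 alone was 86.6% to 93.2% of the sum across all 8 libraries. Of the 7, 6 were highest in both E47 wild-type libraries, Myocd was not, and none was at 0 in any genotype. The share of all genes tested that were highest in both these libraries was not counted. Xist, the transcript of the inactive X chromosome of female cells, had 0 to 2 counts in each of the other 6 libraries and 102 and 198 counts in the E47 wild-type libraries. Ddx3y, a Y-linked gene, lay between 84.9 and 154 CPM in all 8 libraries. Xist and Ddx3y were chosen after their values were seen. Tcf3, the targeted gene, was at 145 and 143 CPM (E12 knockout), 109 and 107 CPM (E12 wild type), 128 and 128 CPM (E47 knockout) and 94.5 and 93.7 CPM (E47 wild type). Counts per gene do not separate the E12 and E47 exons, so Tcf3 does not check the labels. Library totals ran from 13909230 to 27517374 counts, and a count of 0 in one library allows a level of up to 0.117 to 0.224 CPM.

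The members fell into 3 sets by level. Twist1, Twist2 and Scx were expressed in all 4 genotypes, Tal1, Lyl1 and Hand2 exceeded 3 counts in some genotypes only, and Tcf21, Tcf15, Msc and Mesp1 were at or near zero throughout. Tcf21, Tcf15 and Msc had no count in any of the 8 libraries, which allows a level of up to 0.0214 CPM for each over all libraries. Mesp1 had 1 count in all, in the second E12 wild-type library. In all, 6 of the 10 members, those of the first 2 sets, passed the filter on low counts and entered the test among 13992 genes. Tal1, Lyl1 and Hand2 passed it through the genotypes in which they were higher, so counts over the 6 are a description only.

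In GRCm38, Tal1 lies on chromosome 4 (115056426 to 115071755) and Lyl1 on chromosome 8 (84701457 to 84704715), both on the plus strand. Twist1 is on chromosome 12 (33957671 to 33959829, plus), Twist2 on chromosome 1 (91801461 to 91848028, plus) and Hand2 on chromosome 8 (57320983 to 57324633, plus). Scx lies on chromosome 15 (76457452 to 76459458, plus), inside the body of Bop1 on the other strand, but shares no exon base with it. The silent members lie on chromosome 10 (Tcf21, 22817281 to 22820174, minus), chromosome 2 (Tcf15, 152143561 to 152149097, plus), chromosome 1 (Msc, 14753346 to 14755992, minus) and chromosome 7 (Mesp1, 79792241 to 79793788, minus). The libraries did not keep strand, so reads from genes that overlap on opposite strands cannot be told apart. That touches Twist2, which shares 46.5% of its exon length with the antisense gene Gm29100, Msc, which shares 21.2% with Gm9947, and Hand2, which shares 19.6% with Hand2os1. Tal1, Twist1 and Scx share no exon base with another gene, and Lyl1 shares 4 bases with Nfix.

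The 250 bases before the annotated starts of Tal1, Lyl1, Twist1 and Twist2 are shown because these 4 members passed the test between the E47 knockout and its wild type. They come from RefSeq on GRCm38.p6, whose table matched 7 of the 10 members, without Tcf15, Msc and Scx. Capitals mark the E-box letters CANNTG, which read alike on both strands, and the letters GATA on either strand (GATA or TATC). All 5 windows are written 5′ to 3′ on the plus strand.
Tal1, first start, chr4:115056176-115056425: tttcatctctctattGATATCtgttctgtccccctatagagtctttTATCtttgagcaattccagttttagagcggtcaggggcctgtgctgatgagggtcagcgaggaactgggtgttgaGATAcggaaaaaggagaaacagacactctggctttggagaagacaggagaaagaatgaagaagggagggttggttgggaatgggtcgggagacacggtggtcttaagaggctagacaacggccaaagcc
Tal1, second start, chr4:115057561-115057810: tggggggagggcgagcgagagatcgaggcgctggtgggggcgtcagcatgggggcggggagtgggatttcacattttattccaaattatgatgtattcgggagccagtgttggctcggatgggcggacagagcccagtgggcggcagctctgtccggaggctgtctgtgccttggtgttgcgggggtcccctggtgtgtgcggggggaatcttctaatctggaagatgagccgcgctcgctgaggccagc
Lyl1, chr8:84701207-84701456: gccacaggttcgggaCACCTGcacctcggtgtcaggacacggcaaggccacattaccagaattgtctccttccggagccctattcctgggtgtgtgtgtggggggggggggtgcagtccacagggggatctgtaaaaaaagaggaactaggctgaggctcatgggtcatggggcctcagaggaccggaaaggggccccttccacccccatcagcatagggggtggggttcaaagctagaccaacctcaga
Twist1, chr12:33957421-33957670: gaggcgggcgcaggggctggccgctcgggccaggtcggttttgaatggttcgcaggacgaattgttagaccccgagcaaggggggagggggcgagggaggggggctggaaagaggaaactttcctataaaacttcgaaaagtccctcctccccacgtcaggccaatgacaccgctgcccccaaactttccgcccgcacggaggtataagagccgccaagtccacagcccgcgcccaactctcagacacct
Twist2, chr1:91801211-91801460: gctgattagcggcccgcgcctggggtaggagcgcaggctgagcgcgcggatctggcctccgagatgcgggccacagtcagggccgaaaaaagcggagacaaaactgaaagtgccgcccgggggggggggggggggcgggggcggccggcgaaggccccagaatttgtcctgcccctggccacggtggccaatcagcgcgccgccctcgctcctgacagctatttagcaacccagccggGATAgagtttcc

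Of these windows, only that of Lyl1 held an E-box, CACCTG, beginning 235 bases before the start. Of 32851 RefSeq windows of this length, 66.2% held at least 1 E-box and 53.6% held GATA on either strand. The window before the first Tal1 start held 4 GATA matches, beginning 235, 233, 204 and 129 bases before it, the Twist2 window held 1, and the others held none. All 250 bases of the Twist2 window lie in an exon of the antisense gene Gm29100. These matches describe letters in short windows and not binding.

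**Figure D1:**
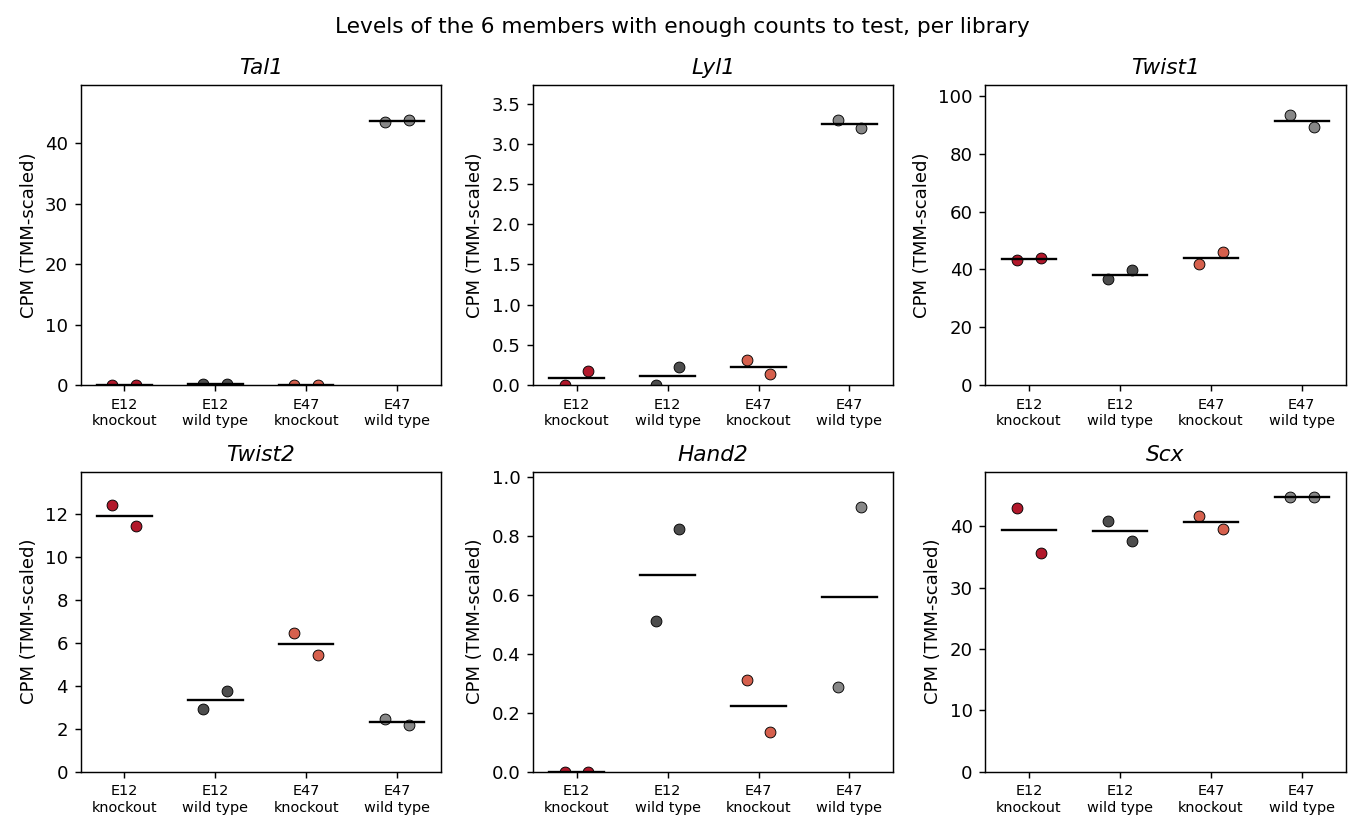
Level of each of the 6 tested members in CPM on TMM-scaled library sizes, 1 point per library and a line at the mean of each genotype's 2 libraries; each panel has its own vertical axis starting at 0. Tal1, Lyl1 and Twist1 are highest in the E47 wild type, Twist2 is highest in the E12 knockout, Hand2 is at 0 in the E12 knockout, and Scx stays between 35.7 and 44.8 CPM.

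Tal1, which encodes a bHLH factor needed to form blood and active in endothelial cells, was expressed in the E47 wild type and was close to zero elsewhere. E12-knockout libraries held 1 and 1 counts, E12 wild-type libraries 3 and 2, E47-knockout libraries 0 and 0, and E47 wild-type libraries 607 and 1123. In the E47 wild type these came to 43.5 and 43.8 CPM. The libraries of the E47 wild type agreed closely and did not overlap with those of any other genotype. Over both libraries, the E47 knockout was at least 498-fold lower than the E47 wild type (edgeR quasi-likelihood test, adjusted p = 4.72e-13). This fold takes 3 counts as the limit of the knockout's count of 0, and the wild type's count as exact. The E12 wild type was also lower than the E47 wild type, with a log2 change of -7.93 (SE 0.207, adjusted p = 4.93e-13 in the same test). Between the E12 knockout and the E12 wild type, 2 against 5 counts gave a ratio of 0.311, with a 95% counting interval of 0.0296 to 1.90, so a difference was not detectable at this depth. With so few counts in the E12 libraries, a fall like that in E47 could not have been seen there, so whether the knockouts differ in their effect on Tal1 cannot be read from these data.

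Lyl1, the close relative of Tal1, was likewise highest in the E47 wild type, at 1.80 CPM per kilobase of exon there against 9.96 for Tal1. E12-knockout libraries held 0 and 3 counts, E12 wild-type libraries 0 and 3, E47-knockout libraries 6 and 2, and E47 wild-type libraries 46 and 82. The E12 genotypes were thus near zero, the E47 knockout held 8 counts, and the E47 wild type was above all of them. Lyl1 fell in the E47 knockout to 0.312 and 0.134 CPM, against 3.29 and 3.20 CPM in its wild type, a log2 change of -3.75 (SE 0.497, adjusted p = 1.55e-05). The ratio of the E12 wild type to the E47 wild type was 0.0320 (counting interval 0.00650 to 0.0955, adjusted p = 8.36e-06). Both E12 genotypes were at the limit of 3 counts, so no fold between them is given. The difference between the 2 knockout changes of Lyl1 missed the threshold (adjusted p = 0.108, 95% interval -0.18 to 7.01 on the log2 scale). It passed with DESeq2 (adjusted p = 0.0455), with no filter on low counts (0.0473), and on leaving out the second E12 wild-type library (0.0181) or the first E12 knockout library (0.0315). With 3 counts in each E12 genotype, a fall like that in E47 could not have been seen in E12.

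Markers of other cell types moved with Tal1 and Lyl1. Pecam1, an endothelial adhesion molecule, had 0.572 and 0.535 CPM in E47-knockout libraries, against 211 and 194 CPM in E47 wild-type libraries. Cdh5, the cadherin of endothelial junctions, had 0.468 and 0.134 CPM in E47-knockout libraries, against 174 and 167 CPM in E47 wild-type libraries. Of the 9 endothelial markers, 8 were higher in both E47 wild-type libraries than in any other library. The exception was Kdr, the main VEGF receptor gene, with 3.28 and 3.36 CPM (E12 knockout), 5.17 and 2.84 CPM (E12 wild type), 1.14 and 0.468 CPM (E47 knockout) and 2.15 and 2.65 CPM (E47 wild type). Kdr was higher in the E12 wild type than in the E47 wild type (log2 change 0.73, adjusted p = 0.0463) and fell in the E47 knockout (-1.53, adjusted p = 0.00376). Xist was high in the same 2 libraries as the other 8. Markers of blood cells were not: the 10 blood and macrophage markers summed to 1.86 to 2.75 CPM (E12 knockout), 4.19 to 5.10 CPM (E12 wild type), 1.60 to 1.82 CPM (E47 knockout) and 2.36 to 3.24 CPM (E47 wild type). In the E47 wild type Itgam and Cd3e were at 0, and 4 mast cell markers summed to 0.195 to 0.573 CPM, with Tpsb2 and Ms4a2 at 0. The part that the endothelial markers or Xist have in the Tal1 and Lyl1 results was not tested. In bulk samples fewer cells of a type and less RNA per cell cannot be told apart.

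The genes of the TAL1 and LYL1 complex were divided. Both proteins act with GATA factors, the LIM-domain proteins LMO1, LMO2 and LMO4, the adaptors LDB1 and LDB2 and the co-repressor CBFA2T3. Of 12 genes listed, 10 were tested, Gata1 had no count, and Ldb2 had 3 counts at most in a genotype. In the E47 knockout 4 fell and 4 rose against the E47 wild type (median log2 change -0.03, against 0.01 over all genes tested), where 55.2% of all genes tested passed. Gata2, a GATA factor of blood progenitors and endothelium, fell to 7.38 and 6.48 CPM in the E47 knockout, against 136 and 131 CPM in the E47 wild type. Gata3 fell to 4.63 and 4.55 CPM, against 43.8 and 41.7 CPM, and Cbfa2t3 to 1.92 and 1.87 CPM, against 9.31 and 8.50 CPM. Lmo2 had no count in the E47 knockout and 22 and 47 counts in the E47 wild type. With the 0 set to 3 counts and the wild type's count taken as exact, the knockout was 19.9-fold lower. Lmo4 (log2 change 0.35), Lmo1 (2.15), Ldb1 (0.29) and Ssbp2 (0.81) rose, these 4 being named after their values were seen. The genes that fell were thus the GATA factors, Lmo2 and Cbfa2t3, all of them also lower in the E12 wild type than in the E47 wild type.

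**Figure D2:**
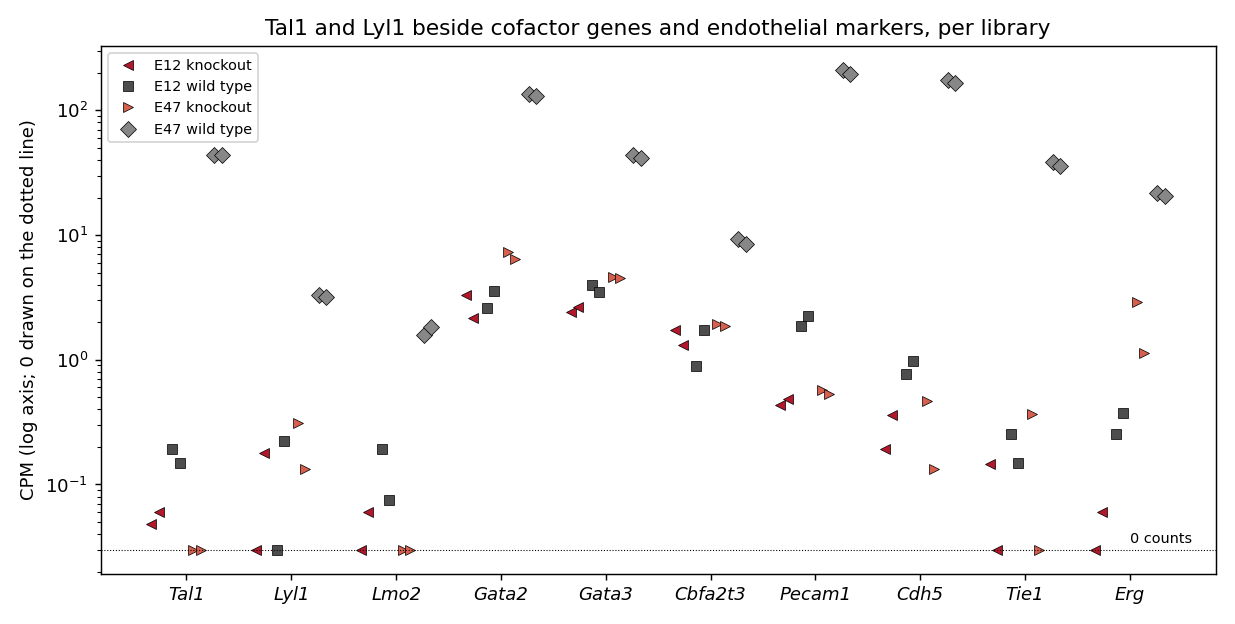
CPM in each library, on a log axis with 0 drawn on the dotted line, for Tal1 and Lyl1, 4 genes of their complex and 4 of the 8 endothelial markers that were highest in the E47 wild type; symbols stand for genotypes, with 2 points each. The 4 complex genes drawn are those that fell in the E47 knockout, and the 4 that rose (Lmo4, Lmo1, Ldb1 and Ssbp2) are not drawn. With this choice of genes, in all 10 both E47 wild-type libraries lie above every other library, for Tal1 at 43.5 and 43.8 CPM.

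In the E12 knockout 3 genes of that complex list rose and 1 fell against the E12 wild type (median 0.08, against -0.01 over all genes tested), where 46.4% of all genes tested passed. Lmo4 rose by 1.04 and Runx1, a blood and endothelial transcription factor, by 1.55 on the log2 scale. Lmo1 rose, with 39 and 35 counts in E12-knockout libraries against 3 and 0 in E12 wild-type libraries, a ratio of 19.2 (counting interval 6.31 to 95.1). Gata3 fell by 0.57 on the log2 scale. Gata2 had 3.28 and 2.16 CPM in E12-knockout libraries, against 2.62 and 3.59 CPM in E12 wild-type libraries, and these overlapped.

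Twist1, which encodes a mesenchymal factor that represses epithelial genes, fell in the E47 knockout. E12-knockout libraries had 43.3 and 44.1 CPM, E12 wild-type libraries 36.6 and 39.7 CPM, E47-knockout libraries 42.0 and 45.9 CPM, and E47 wild-type libraries 93.3 and 89.4 CPM. Only the E47 wild type departed widely, and the libraries of the E12 and E47 knockouts overlapped. The log2 change was -1.06 in the E47 knockout (SE 0.0750, adjusted p = 1.90e-08), and the E12 wild type was lower than the E47 wild type by a log2 change of -1.26 (SE 0.0769, adjusted p = 2.20e-09). In the E12 knockout both libraries lay above both wild-type libraries by a small margin, with a log2 change of 0.20 (SE 0.0796) that missed the threshold (adjusted p = 0.0545). That value passed without the second E12 wild-type library (0.25, adjusted p = 0.0429), without the first E47 knockout library (0.20, 0.0494), without the second (0.20, 0.0499), and among genes with at least 1 CPM in 2 libraries (0.20, 0.0497). The knockouts differed from each other by -0.01 (95% interval -0.17 to 0.16), E12 over E47. Set against each other, the 2 knockout changes differed by 1.25 (SE 0.109, adjusted p = 2.58e-07). The endothelial markers and Xist were high in the same E47 wild-type libraries as Twist1, and their part in the result was not tested.

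Twist2, the close relative of Twist1, rose in both knockouts. E12-knockout libraries had 12.4 and 11.4 CPM, against 2.94 and 3.74 CPM in E12 wild-type libraries. E47-knockout libraries had 6.45 and 5.41 CPM, against 2.44 and 2.18 CPM in E47 wild-type libraries. In each pair both knockout libraries lay above both wild-type libraries. The log2 change was 1.85 for the E12 knockout (SE 0.168, adjusted p = 4.17e-07) and 1.39 for the E47 knockout (SE 0.190, adjusted p = 2.13e-05). The difference between these changes was 0.46 (95% interval -0.11 to 1.02, adjusted p = 0.172). Twist2 was higher in the E12 knockout than in the E47 knockout by a log2 change of 0.99 (SE 0.145, adjusted p = 3.99e-05). The E12 wild type exceeded the E47 wild type by 0.54 (SE 0.220), at the edge of the threshold (adjusted p = 0.0503), and this passed without the first E12 wild-type library (0.72, adjusted p = 0.0335), without either E47 knockout library (0.55 each, 0.0471 and 0.0468) and with upper-quartile scaling (0.57, 0.0377). The endothelial sum was highest in the E47 wild type, where Twist2 was lowest, and its part in the result was not tested.

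The antisense gene at the Twist2 start rose with Twist2 in the E12 knockout. Gm29100, chosen after its values were seen, had 2.27 and 1.98 CPM in E12-knockout libraries, against 0.255 and 0.149 CPM in E12 wild-type libraries, and 0.728 and 0.869 CPM in E47-knockout libraries, against 0.573 and 0.273 CPM in E47 wild-type libraries. It rose in the E12 knockout by a log2 change of 3.33 (SE 0.465, adjusted p = 3.42e-05), and its change of 1.04 in the E47 knockout missed the threshold (adjusted p = 0.0716). Between the wild types its log2 change of -0.87 ran the other way from that of Twist2, and neither passed (adjusted p = 0.282 for Gm29100). How much of either count came from the other strand cannot be told apart.

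Hand2, which encodes a factor of the heart and neural crest, was at the edge of detection and had no count in the E12 knockout. E12-knockout libraries held 0 and 0 counts, E12 wild-type libraries 8 and 11, E47-knockout libraries 6 and 2, and E47 wild-type libraries 4 and 23. With its 0 set to 3 counts over the group, the E12 knockout was 8.15-fold lower than the E12 wild type (adjusted p = 0.00157). This fold leaves out the counting error of the wild type. In E47 the libraries overlapped, at 0.312 and 0.134 CPM in the knockout and 0.287 and 0.897 CPM in the wild type, and the log2 change of -1.49 missed the threshold (SE 0.647, adjusted p = 0.0649). It passed without the first E47 wild-type library (-1.91, adjusted p = 0.0248) and was -0.29 (0.845) without the second, which alone held 23 of the genotype's 27 counts. The difference between the knockout changes passed (adjusted p = 0.0377) but was lost without the second E12 wild-type library (0.0585), the first or second E12 knockout library (0.124 and 0.102) or the first E47 knockout library (0.175). The E12 knockout was at least 2.91-fold lower than the E47 knockout (adjusted p = 0.0247), a call that ended without the first or second E12 knockout library (0.104 and 0.0812) or the first E47 knockout library (0.164). Hand2os1, on the other strand, had 3 counts in the second E12 wild-type library and none in the others.

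Scx, which encodes the tendon factor scleraxis, was not called in any comparison. E12-knockout libraries had 42.9 and 35.7 CPM, E12 wild-type libraries 40.9 and 37.6 CPM, E47-knockout libraries 41.7 and 39.6 CPM, and E47 wild-type libraries 44.8 and 44.8 CPM. The libraries of the E12 genotypes overlapped, and those of the E47 knockout lay just below those of the E47 wild type. Its log2 change was 0.00 for the E12 knockout (95% interval -0.19 to 0.20) and -0.14 for the E47 knockout (-0.33 to 0.05). The test over all 4 genotypes at once did not call it (adjusted p = 0.174), and it called the other 5 tested members, where 80.8% of all genes tested passed.

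**Figure D3:**
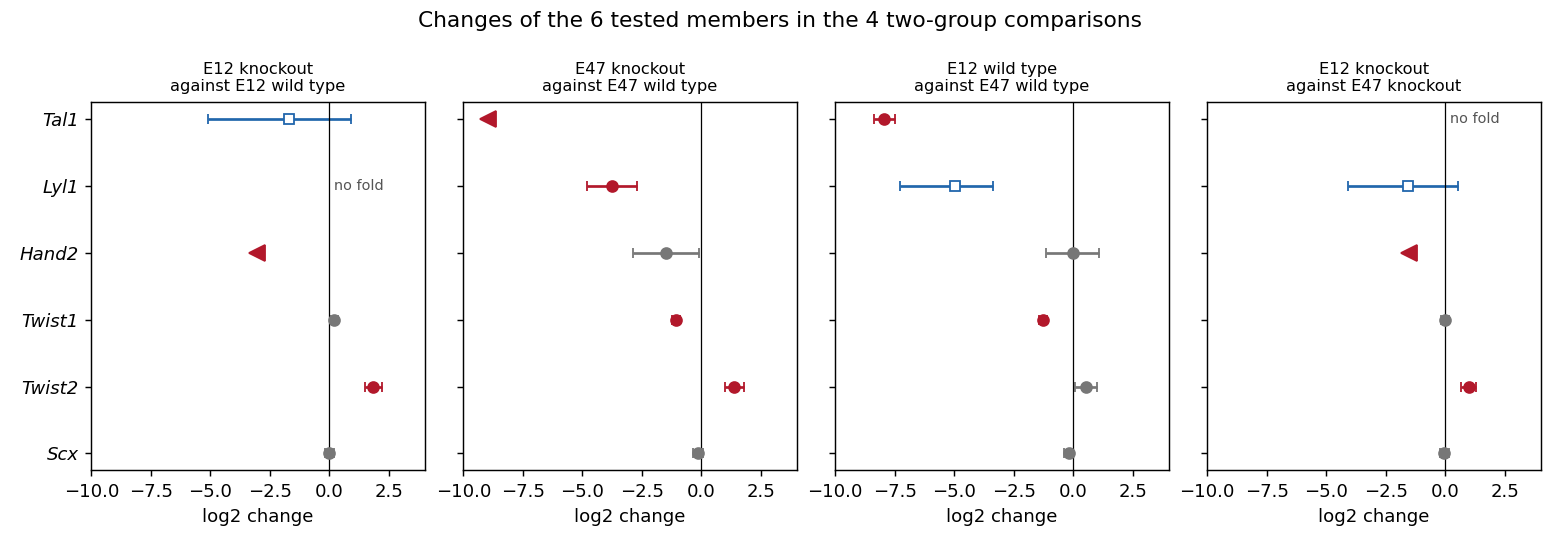
Log2 change of the 6 tested members in 4 comparisons, named above each panel. Circles are fitted changes with 95% intervals, red where past an adjusted p of 0.05 and grey where not; red triangles are the smallest fold change that a count of 0 allows; open squares are ratios of small counts with counting intervals. Twist2 lies right of 0 in both knockout panels, at 1.85 and 1.39, while Twist1 lies left of it in the E47 knockout, at -1.06.

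In counts, 2 of the 6 tested members passed in the E12 knockout, Twist2 higher and Hand2 lower, where 46.4% of all genes passed (21.9% higher and 24.5% lower). In the E47 knockout 4 passed, Twist2 higher and Tal1, Lyl1 and Twist1 lower, where 55.2% of all genes passed (27.7% higher and 27.5% lower). For the difference of the changes 3 passed, Tal1 (with the limit given above) and Twist1 upward and Hand2 downward, where 48.6% passed (22.9% upward and 25.7% downward). Between the wild types 3 passed, Tal1, Lyl1 and Twist1, all lower in E12, where 55.4% passed (27.8% higher and 27.6% lower). Between the knockouts 2 passed, Twist2 higher and Hand2 lower in E12, where 52.9% passed (25.9% higher and 27.0% lower). These comparisons share libraries, and over so few members such counts are not a result about the members. With totals under 3 counts set to 3, the 6 tested members' median change was -0.18 for the E12 knockout and -1.27 for the E47 knockout. Over all genes tested the medians were -0.01 and 0.01. Tal1 and Lyl1 passed the filter on low counts through the E47 wild type, where they were higher. The E47 median leans on that filter, so these medians are a description only and not a result about the members.

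Levels can be compared between genes only per length, so CPM was divided by exon length in kilobases (kb). On this scale Twist1 and Scx made up most of what the members held. Twist1 averaged 26.9, 23.4, 27.0 and 56.1 CPM per kb in the E12 knockout, E12 wild type, E47 knockout and E47 wild type, and Scx averaged 19.6, 19.6, 20.3 and 22.3 CPM per kb in the same order. Next came Tal1 in the E47 wild type, at 9.96 CPM per kb and 10.8% and 11.1% of the members' summed level, and Twist2 in the E12 knockout, at 3.74 CPM per kb and 7.50% and 7.40%. Using the longest transcript as the length put Twist2 at 4.71 and Tal1 at 10.4 CPM per kb in these genotypes. Twist2 shares 46.5% of its exon length with Gm29100, and how reads there were assigned is not known, so its level per kb is less sure. The members summed to 51.9 and 48.6 CPM per kb (E12 knockout), 44.1 and 44.9 (E12 wild type), 48.9 and 49.8 (E47 knockout), and 92.3 and 90.1 (E47 wild type).

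The partners' own dimer partners varied less in sum. The E-protein genes Tcf3, Tcf4 and Tcf12 summed to 44.1 and 43.7 CPM per kb (E12 knockout), 33.9 and 33.9 (E12 wild type), 40.6 and 40.9 (E47 knockout), and 33.5 and 33.5 (E47 wild type). The members' sum was 111% to 118% of that for the E12 knockout, 130% to 132% for the E12 wild type, 120% to 122% for the E47 knockout and 269% to 275% for the E47 wild type. Which sum was larger depends on the length used. Per kb of the longest transcript the members' sum was 70.8% to 74.7% of the E-protein sum for the E12 knockout, 81.2% to 82.3% for the E12 wild type, 73.1% for both E47 knockout libraries and 151% to 156% for the E47 wild type. On both lengths it exceeded the E-protein sum in the E47 wild type. The 4 Id genes together were higher than either, at 172 to 306 CPM per kb of exon over the 8 libraries. The Id sum was lowest in the E12 knockout, at 192 and 172 CPM per kb, against 293 and 270 in the E12 wild type.

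**Figure D4:**
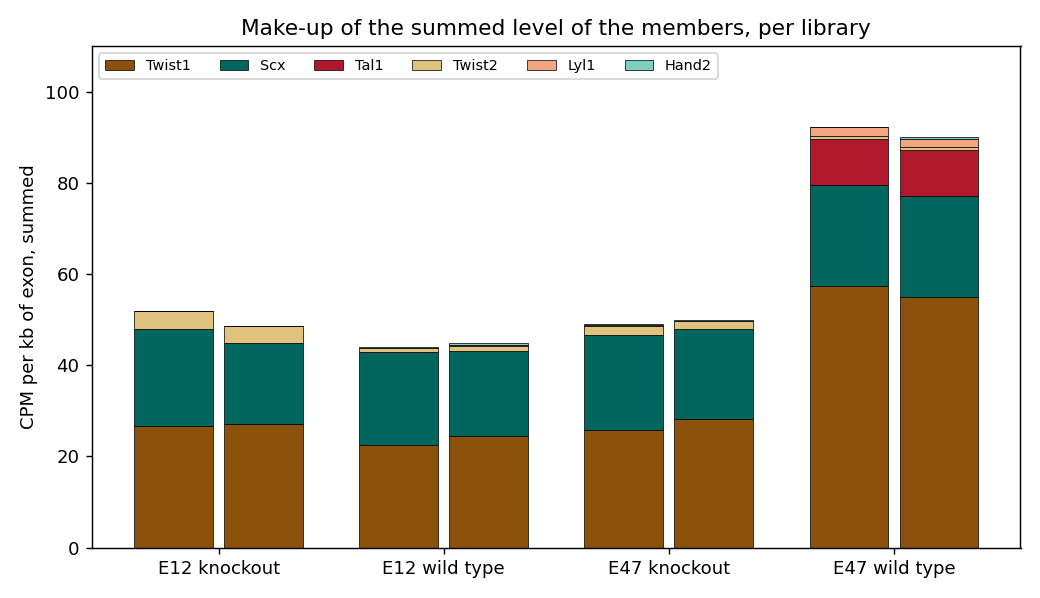
Summed level of the members in each library in CPM per kb of exon, stacked by gene; bars start at 0 and stand in pairs by genotype. The E47 wild-type bars reach 92.3 and 90.1, with a Tal1 segment of 10.8% and 11.1% that is too thin to see in the others, and Twist1 and Scx fill most of every bar.

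Other tissue-restricted bHLH genes were mostly silent, where only 26669 of all 55353 entries held any count in the 8 libraries. Of 37 further genes of this class, 21 had no count in any library, 29 (these 21 included) had at most 3 counts in every genotype, and only Atoh8 was tested. Myod1, Myf5 and Myf6, the skeletal muscle determinants, were among those at 0, as were Hand1 and the Neurog genes. Mesp2, the neighbour and relative of Mesp1, had 12 counts in all in the E12 knockout, 10 in the E12 wild type, 15 in the E47 knockout and 6 in the E47 wild type. Atoh8, which is known in endothelial and skeletal muscle biology, averaged 90.4 ± 3.41 CPM (E12 knockout), 149 ± 4.77 CPM (E12 wild type), 147 ± 10.8 CPM (E47 knockout) and 194 ± 2.31 CPM (E47 wild type; SD, n = 2 each). It fell in the E12 knockout by 0.72 (adjusted p = 1.18e-06) and in the E47 knockout by 0.40 (adjusted p = 0.000222) on the log2 scale.

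For each tested member the 3 genes with the most similar pattern were sought among 11091 by Pearson r of log2 CPM over the 8 libraries, which carry 4 genotypes in pairs. For Tal1 they were Csnk1g2, St6galnac4 and Adcy4, with r from 0.994 to 0.997. Adcy4, an adenylyl cyclase gene, had 0 to 0.224 CPM in the other genotypes and 29.8 and 28.8 CPM in E47 wild-type libraries. Csnk1g2, a casein kinase gene, had at most 155 CPM in the other genotypes and 203 and 206 CPM in E47 wild-type libraries. For Twist1 they were Slc39a14, Tdg and Txnip (0.993 to 0.996), and for Lyl1 they were Hook3, B3glct and Fbxl17 (0.972 to 0.986). For Twist2 they were Prrg1, Nono and Trmt2b (0.989 to 0.996), all on the X chromosome, and the reason was not tested. Prrg1 had 10.9 and 9.97 CPM (E12 knockout), 3.83 and 4.26 (E12 wild type), 6.19 and 5.61 (E47 knockout), and 3.29 and 3.24 (E47 wild type). For Hand2 they were Trpc1, Fyco1 and Mafk (0.986 to 0.992) and for Scx Cxcl16, E4f1 and Uros (0.936 to 0.969). Logs were taken after adding 0.5 to each count. Tal1, Lyl1 and Hand2 hold few or no counts in some libraries, so their r leans on that value and on counting noise. These values describe the 8 libraries only.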

How the data were processed

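Gene expression was measured by unstranded, polyA-enriched mRNA sequencing. Per the submitters' processing notes, FastQC, HISAT and featureCounts were used with the build GRCm38 (mm10); for versions, settings, the annotation, and whether reads or fragments were counted, the sources used here say nothing. The authors deposited raw counts per gene as 1 column per library, not pooled. Counts were fitted with edgeR 4.0.16 in R 4.3.3. Genes passed edgeR's filter on low counts over the 4 genotypes (13992 of 55353), library sizes were scaled by edgeR's TMM method, and contrasts of a 4-genotype model on all 8 libraries were tested by the quasi-likelihood F test. Benjamini-Hochberg adjustment ran over all genes tested, with calls under an adjusted p of 0.05. Errors are standard errors (SE) or 95% intervals. A genotype with 1 to 3 counts over both libraries was called near zero, and intervals on counts are exact and hold counting error alone, as PCR copies were not marked.

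The libraries of a genotype differed by more than sampling noise, where a chi-square per gene of 1 is noise alone. It was 14.2 in the E12 wild type, 5.16 in the E12 knockout, 5.04 in the E47 knockout and 4.77 in the E47 wild type. Positions and lengths are from GENCODE M21. Members, gene lists and tests were chosen with earlier results of these data known. Genes were named by rule (the members, complex and other bHLH genes, and up to 4 genes of lowest p per list). Alternatives were DESeq2 1.42.0, other scalings, other filters, fits of the 2 groups alone, leaving out each library in turn and, chosen after seeing the data, leaving out the E47 wild-type libraries. The fits were tested on simulated data.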

Additional observations from a re-analysis of the deposited data

Results flagged for a closer look

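For 3 members the test of the difference between the 2 knockout changes passed (edgeR quasi-likelihood test, adjusted over all 13992 genes). For Tal1 the adjusted p was 0.000476, with the E47 knockout at 0 and 0 counts against 607 and 1123 in the E47 wild type, and the E12 knockout at 1 and 1 against 3 and 2 in the E12 wild type. With so few counts in E12 no such fall could have been seen there, so this p only restates that the E47 wild type alone expressed Tal1. For Twist1 it was 2.58e-07, with a log2 change of 0.20 for the E12 and -1.06 for the E47 knockout. Twist1 differed by -0.01 between the knockouts and by -1.26 between the wild types, E12 over E47. This p thus mostly restates that the wild types differed in Twist1. For Hand2 the adjusted p was 0.0377, from 0 and 0 counts in E12-knockout against 8 and 11 in E12 wild-type libraries. E47-knockout libraries held 6 and 2 Hand2 counts against 4 and 23 in E47 wild-type libraries. The Hand2 value did not pass on leaving out the second E12 wild-type library, either E12 knockout library or the first E47 knockout library (adjusted p 0.0585 to 0.175), and it passed in 8 of 12 settings.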

How the results depend on the processing

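No paired analysis was possible because the labels give no replicate numbers shared between genotypes. Of 408 refitted changes of tested members, 378 kept their direction and their side of the threshold, 13 passed only in the refit, 7 passed only before it and 10 turned direction. Leaving out 1 library gave 2 to 3 members past the test in the E12 knockout, 4 to 5 in the E47 knockout, 2 to 3 for the difference of the changes, 3 to 4 between the wild types, 1 to 2 between the knockouts and 5 to 6 over all 4 genotypes. In a fit of the 2 groups alone, and without the E47 wild-type libraries, 1 member passed in the E12 knockout and 1 between the knockouts, where Hand2 no longer met the filter on low counts. With at least 1 CPM in 2 libraries as the filter, 1 passed between the knockouts, Hand2 again being untested. The changes that turned direction were uncalled in the reported fit. Leaving out 1 library took the change of Lyl1 in the E12 knockout from -3.97 to 3.66 (0.77 without the first E12 knockout library) and its difference of changes from -0.22, without the second E12 knockout library, to 7.42. Hand2 between the wild types was at 0.10 with DESeq2, 0.01 with upper-quartile scaling, and -0.45 to 1.17 without 1 library. Between the knockouts, Twist1 ran from -0.07 to 0.06 and Scx from -0.18 to 0.08 without 1 library. The cause was not tested. Depth limits Tal1, Lyl1 and Hand2 wherever they hold a few counts.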

Other observations

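Genes of the tendon programme, in which Scx acts, were mixed. Of 10 listed, 8 were tested. In the E12 knockout 3 rose and 1 fell against the E12 wild type, and in the E47 knockout 3 rose and 3 fell against the E47 wild type (medians 0.02 and 0.11, against -0.01 and 0.01 over all genes tested). Of all genes tested 46.4% and 55.2% passed, so these counts say nothing particular about the list. Bgn, the proteoglycan biglycan, had log2 changes of 0.00 and 0.05 that did not pass, and is named after its values were seen. Mkx, which encodes the tendon homeobox factor Mohawk, rose to 3.19 and 2.64 CPM in the E12 knockout, against 0.383 and 0.224 CPM in the E12 wild type. It fell to 8.52 and 7.75 CPM in the E47 knockout, against 16.0 and 15.1 CPM in the E47 wild type. Egr1, a stretch-responsive transcription factor gene, rose in both (log2 changes 0.77 and 1.47). Col14a1 rose by 2.22 and Col11a1 fell by 1.60 on the log2 scale in the E47 knockout.

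The next list held genes that share tissues with Tcf21, Hand2 and the Twist genes. Of 16 epicardial and mesenchymal genes, 14 were tested. In the E12 knockout 5 rose and 6 fell, and in the E47 knockout 4 rose and 7 fell (medians -0.10 and -0.14), where 46.4% and 55.2% of all genes tested passed. Aldh1a2, a retinoic acid synthesis enzyme gene of the epicardium, had 0.290 and 0.421 CPM in E12-knockout libraries, against 14.7 and 15.1 CPM in E12 wild-type libraries. E47-knockout libraries had 30.3 and 26.1 CPM, against 82.6 and 85.2 CPM in E47 wild-type libraries, so it fell in both knockouts. Tbx18 fell by 2.13 and Pdgfra rose by 3.02 on the log2 scale in the E12 knockout. Prrx1, a mesenchymal homeobox gene, rose by 1.78 and Snai2, a repressor often studied beside Twist1, fell by 1.36 on the log2 scale in the E47 knockout.

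The 5 mesothelial markers summed to at least 689 CPM (E12 knockout), 1069 CPM (E12 wild type), 334 CPM (E47 knockout) and 86.5 CPM (E47 wild type), and Wt1 was at 0 in the E47 wild type. All 5 were lower in both E47 wild-type libraries than in any other library. Of the 6 adventitial fibroblast markers, Col1a1 made up nearly all of the sum, and 4 were lower in both E47 wild-type libraries than in any other. Dcn, which encodes the matrix proteoglycan decorin, averaged 73.0 CPM (E12 knockout), 61.0 CPM (E12 wild type), 94.6 CPM (E47 knockout) and 2.05 CPM (E47 wild type). Dcn is named after its values were seen. Pi16 and Pdgfra were not among those 4. In the same order Pi16 averaged 1.20, 2.70, 3.84 and 4.57 CPM, and Pdgfra averaged 21.9, 2.72, 9.07 and 14.7 CPM. Among 5 skeletal muscle markers only Acta1 had more than 2 counts in a genotype, and Myod1 was at 0 throughout.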
